A study of Microtus ochrogaster with 23 samples.

Results

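DNA methylation outside chromosome X was compared between “Father” and “Mother” prairie voles in the dentate gyrus (DG), the part of the hippocampus that receives its main cortical input. The comparison used 11 of the 23 animals of the series, 5 “Father” and 6 “Mother” voles with 1 reduced representation bisulfite sequencing (RRBS) library each. RRBS reads the CpG-rich fragments left by the enzyme MspI, and a cytosine's level here is the percentage of its reads in which bisulfite treatment left a C. Cytosines entered when at least 10 reads covered them in at least 4 animals of each group, which left 858003 of 2935686 cytosines on the 27 placed chromosomes and linkage groups and 316716 of 1073148 on unplaced scaffolds. Windows of 1 kb with at least 3 such cytosines were formed, and 39108 placed and 14849 unplaced windows could be tested. Chromosome X was left out of the results, but its windows stayed in the adjustment of p-values.

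“Father” voles were wild-type adult males and “Mother” voles wild-type adult females. Each had been paired, had lived with its mate and their own litter, and met an unfamiliar pup just before the brain was taken. Tissue punches came from both sides of the DG of a single animal. The “Attacker” and “Parental” groups, with 6 animals each, were sexually naive wild-type males sorted by their response to a pup, and their levels are given here only for orientation. “Father” and “Mother” voles differ in sex as well as in parental experience, and these cannot be told apart in this comparison. RRBS gives no expression, so that the tissue could not be checked by the expression of marker genes.

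CpG methylation is copied at cell division by Dnmt1 and is mostly absent from CpG islands, the dense CpG clusters at many promoters. In female mammals a single X copy is kept active in each cell while the other is silenced, and islands of the silenced copy become methylated, whereas the X of a male stays unmethylated there. Draft assemblies leave many sequences without a chromosome, and some sequences can be joined to another chromosome than the one they belong to.

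The libraries held between 68110536 and 129376223 calls, that is reads added up over CpG cytosines, with medians of 21 to 43 reads per cytosine. In the “Father” and “Mother” groups the labels of sex matched the read counts. Calls on chromosome X amounted to 0.810% to 0.99% of those on placed chromosomes in “Father” voles and to 1.08% to 1.35% in “Mother” voles. These groups did not overlap, with a “Mother” to “Father” ratio of 1.36 (two-sided exact permutation test over animals, p = 0.00433, which is the lowest value that 5 against 6 can reach). Virgin males ran from 0.800% to 1.10%. Attacker 6, the highest of them, lay above Mother 1 with 1.08%, so that this share did not separate all males of the series from all females.

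Average methylation outside chromosome X was similar within the spread of each group. Over the 483333 placed cytosines that reached 10 reads in all 11 animals, the average was 5.28%, 5.25%, 5.18%, 5.67% and 5.85% in the 5 “Father” voles and ran from 5.24% over a median of 5.38% to 5.52% in the 6 “Mother” voles. The group means were 5.45% ± 0.296 (SD, n = 5) and 5.38% ± 0.104 (SD, n = 6), a difference smaller than the spread between animals (exact permutation test, two-sided, p = 0.606, and 0.831 after Benjamini-Hochberg adjustment over 2 tests). At 179049 unplaced cytosines the means were 6.59% ± 0.311 (SD, n = 5) and 6.62% ± 0.125 (SD, n = 6), again within the spread (exact permutation test, two-sided, p = 0.831). The sign of both differences turned when single “Father” animals were left out.

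Few windows were called, and most of those were higher in “Mother” voles. On placed chromosomes 15 windows, or 0.0384% of those tested, passed an adjusted p of 0.05 with a difference of at least 10 percentage points (limma on arcsine square root levels), of which 12 were hypermethylated in “Mother” and 3 in “Father” voles. On unplaced scaffolds 44 windows passed, or 0.296%, with 41 higher in “Mother” and 3 in “Father” voles. All 53 windows higher in “Mother”, or 0.0982% of all tested, had a “Father” mean under 5%, from 0% to 3.63% with a median of 0.481%, against “Mother” means of 10.6% to 35.8% with a median of 17.1%. The levels of the groups did not overlap in any of the 59 called windows, while 164 windows with “Mother” higher, 0.304% of those tested, and 156 with “Father” higher, 0.289%, were without overlap and at least 10 points apart. These differed between the classes, with 64 higher in “Mother” and 109 in “Father” on placed chromosomes, or 0.164% and 0.279% of the windows there, and 100 and 47 on unplaced scaffolds, or 0.673% and 0.317%. With p-values adjusted outside chromosome X, 7 placed windows were called, all higher in “Mother”, and 33 unplaced ones, 31 of them higher in “Mother”. Without the arcsine transformation no window passed on either class (limma), although 1704 placed and 784 unplaced windows had an unadjusted p under 0.05, and no window passed with the replicate number as a block.

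The windows higher in “Mother” on placed chromosomes lay mainly on a short part of chromosome 10 (build MicOch1.0). Of the 12, 9 fell between Tfe3 and Cask on chromosome 10 and 1 in Hs6st2 on linkage group LG10. These genes lie on chromosome X in mouse and human. The other 2 were single windows of 3 cytosines in Negr1 and of 4 cytosines in Npas2. In Negr1, a neuronal adhesion gene on chromosome 21, the window at 43264000 to 43264999 had 1.52% in Father 2 and 0% in the other 4, and 66.7%, 25.9%, 33.3% and 17.4% in the 4 “Mother” voles with a value (limma, adjusted p = 0.0393). Virgin males ran there from 0% to 28.1%, across both groups. Without an animal the window could be fitted in 7 of 11 fits. The call held in 2 of them and was lost without any of the 5 “Father” voles.

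Within the coordinates of Pqbp1, which codes for a polyglutamine-binding splicing protein, the window at 34999000 to 34999999 of chromosome 10 held 7 cytosines. Its level was 0% in each of the 5 “Father” voles, and 15.2%, 34.2% and 39.8% at the lowest, median and highest in “Mother” voles. The means differed by 31.8 points (limma, adjusted p = 0.00647), and 170 reads per “Father” and 331 per “Mother” animal stood behind them at the median. Virgin males had a median of 0%, with a single animal at 58.8%. Without an animal the window could be fitted in 8 of 11 fits. The call held in 7 of them and was lost without Father 1.

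The window at 35286000 to 35286999, in the cold-inducible RNA-binding protein gene Rbm3, had levels of 0.6%, 0.424%, 0.923%, 0% and 0% in “Father” voles. “Mother” voles ran from 8.60% over a median of 11.8% to 16.3%. The groups did not overlap, and the difference was 11.7 points (limma, adjusted p = 0.00846). It stayed called with each of the 11 animals left out in turn.

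On LG10, the window at 17581000 to 17581999 in Hs6st2, a heparan sulfate 6-O-sulfotransferase gene, was the broadest of the placed windows with 76 cytosines. “Father” levels were 1.01%, 1.57%, 0.363%, 1.73% and 2.55%. “Mother” levels ran from 15.4% over a median of 20.1% to 25.8%, a difference of 18.2 points (limma, adjusted p = 0.00846). The call was lost whenever a “Father” animal was left out, which also changed the set of cytosines in the window, and the difference fell to 8.84 points without Father 1 and 10.3 points without Father 3. All 12 virgin males lay at or under 3.88%, within or near the range of the fathers.

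Otud5, the gene of a deubiquitinase, held a called window of 59 cytosines at 34942000 to 34942999. “Father” levels were 0.304%, 0.660%, 0.310%, 1.55% and 1.21%, and “Mother” levels ran from 10.01% over a median of 19.4% to 35.02% (limma, adjusted p = 0.0202). At the border of the run, 2 adjoining windows in Cask, the gene of a synaptic scaffold protein, were called as well. The one at 40340000 to 40340999 had “Father” levels of 2.05%, 0%, 1.26%, 0% and 0% and “Mother” levels from 8.62% over a median of 16.4% to 31.3%. Mother 1 and Mother 4 were the highest in both windows of Cask. The call in Otud5 was lost without Father 1, 2, 3 or 4, that at 40340000 in Cask without any of the 5 “Father” voles, and that at 40339000 held in 3 of 11 fits without an animal.

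The remaining called windows of chromosome 10 had the same shape. In Tfe3, a transcription factor gene for lysosome formation, the difference was 13.1 points, in Dynlt3, a dynein light chain gene, 11.98 points, and in Rpgr, a gene of the photoreceptor cilium, 12.1 points (limma, adjusted p = 0.0191, 0.0111 and 0.0379). The window in Porcn, whose product attaches the lipid that Wnt ligands need for secretion, was 15.99 points higher in “Mother” (limma, adjusted p = 0.0468). “Father” means of these windows stayed at or under 1.69%. The window in Rpgr kept its call in 1 of 11 fits without an animal, that in Tfe3 in 10, and that in Dynlt3 in 6, where each fit without a “Father” animal lost it and the difference was 6.36 points without Father 2.

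**Figure D1:**
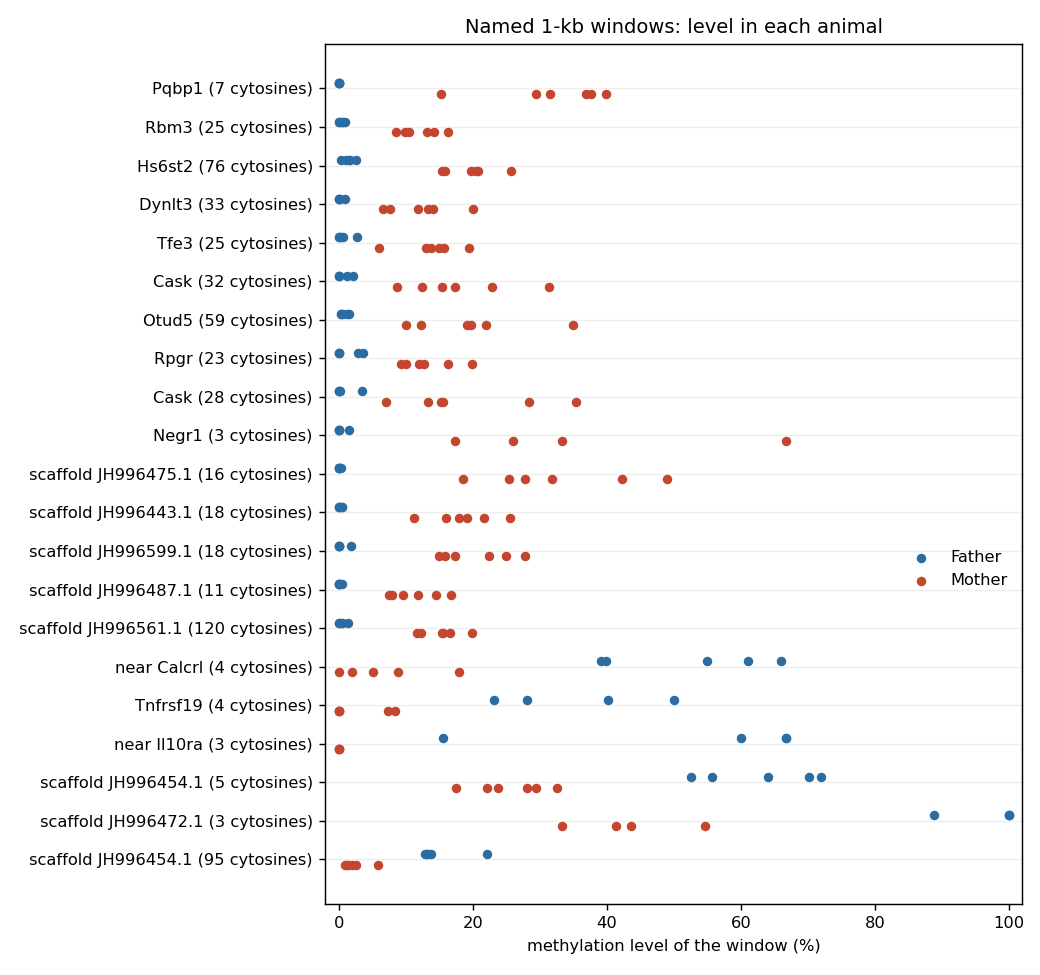
Methylation level in % (x axis) of each named 1-kb window (y axis, by gene or scaffold with its number of cytosines), with a point for each “Father” and “Mother” animal. In the 15 windows of the upper part the “Father” points sit near 0% and all “Mother” points lie to their right, and in the 6 windows of the lower part the order is turned.

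To see whether the called windows stood alone, the places of genes known from textbooks to be X-linked in both mouse and human were looked up, a list drawn up after the calls had been seen. Of 398 such genes, 384 were in the gene table of the assembly, 162 of them on chromosome X and 157 without a place. A run of 58 lay on chromosome 10 between 33061714 and 40340115, a run of 5 on LG10 between 17580566 and 18439276, and 2 elsewhere. The run on chromosome 10 spans 105 genes, and on LG10 7 genes. Since these runs were chosen with the calls known, the values that follow are a description and carry no test.

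In both runs, most windows that were nearly unmethylated in males had higher levels in mothers. Windows were taken as low where the mean of the 12 virgin males was at or under 5%. Of 90 low windows in the chromosome 10 run, 89 were higher in “Mother” and 69 had a “Mother” mean over 5%, compared with 819 of 18490 over 5% on the rest of the placed chromosomes. All 8 low windows of the LG10 run were higher in “Mother” voles.

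At 69 low windows of the chromosome 10 run with values in all 11 animals, the mean level was 0.926%, 1.04%, 1.46%, 1.46% and 0.959% in the “Father” voles and ran from 8.22% over a median of 9.10% to 11.1% in “Mother” voles. At 7 such windows of the LG10 run it ran from 0.446% to 4.68% in “Father” and from 8.73% to 15.6% in “Mother” voles. Neither pair of groups overlapped. Over 17095 low windows on the rest of the placed chromosomes the means were 1.20% ± 0.0963 (SD, n = 5) and 1.21% ± 0.0566 (SD, n = 6), with overlapping groups.

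At higher starting levels the values were closer. At 36 windows of the chromosome 10 run where virgin males averaged over 5% and up to 50%, “Father” voles averaged 14.1% ± 2.02 (SD, n = 5) and “Mother” voles 19.8% ± 2.04 (SD, n = 6). At 7 windows over 50%, they were 83.8% ± 6.49 (SD, n = 5) and 78.0% ± 4.53 (SD, n = 6), with overlapping groups.

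**Figure D2:**
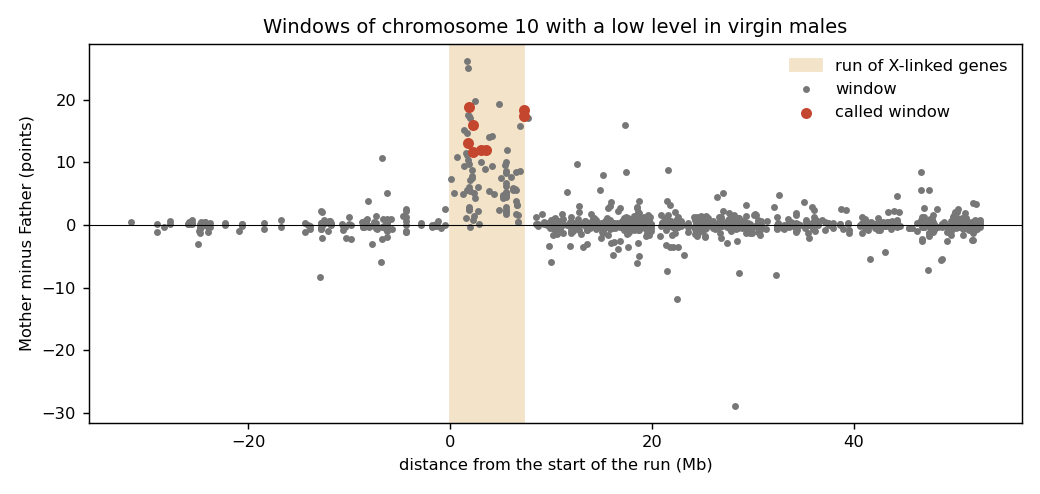
Difference in methylation level, “Mother” minus “Father” in percentage points (y axis), of each low window of chromosome 10 against its distance in Mb from the start of the run of X-linked genes (x axis), with the run shaded and called windows in red. Inside the run 89 of 90 windows lie above 0, while 79 of 146 windows before it and 490 of 901 after it do.

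Low windows elsewhere on chromosome 10 did not share the pattern. The 146 low windows of chromosome 10 before the run averaged 1.14% in “Father” and 1.17% in “Mother” voles and the 901 after it 1.496% and 1.57%, whereas the 90 inside averaged 1.23% and 9.38%.

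Genes of the 2 runs varied. Of 63 X-linked genes in the runs, 49 had a tested window in their span or within 2 kb, 46 had a low one, and in 44 of these the “Mother” mean of the low windows exceeded that of “Father” voles. It was over 5% in 35 genes. The 2 exceptions, Pqbp1 and the mitochondrial import gene Timm17b, share a low window other than the called one, with 0.368% in “Father” and 0% in “Mother” voles. At Bcor, a transcriptional corepressor gene with 14 low windows, the means were 1.71% and 6.94%, and at Usp27x, a deubiquitinase gene, 0.286% and 12.6%. At Ddx3x, an RNA helicase gene known in mouse and human to be expressed from both X copies, the 3 low windows averaged 0.446% in “Father” and 1.28% in “Mother” voles. At Xk, the gene of a blood group membrane protein, the low window had 0.553% and 0.683%.

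**Figure D3:**
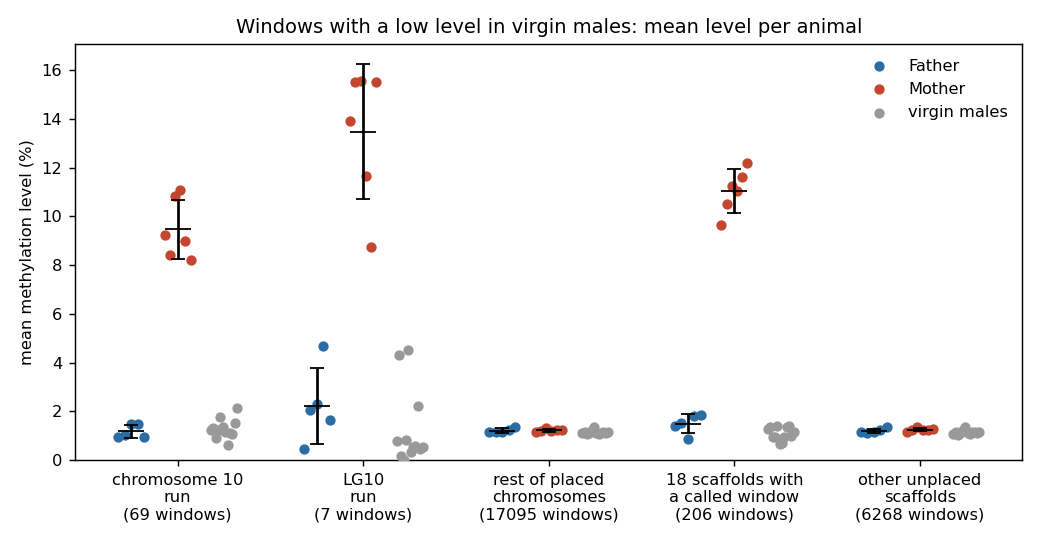
Mean methylation level in % (y axis) over windows that were low in virgin males, by region (x axis), with a point per animal and, for “Father” and “Mother” voles, the mean and SD. “Mother” points stand apart in both runs and in the 18 scaffolds with a called window, and lie with the others on the rest of the placed chromosomes and on the other scaffolds.

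Reads were also more numerous in mothers over these sequences. The chromosome 10 run held 0.252%, 0.261%, 0.253%, 0.257% and 0.256% of the placed calls in the “Father” voles and from 0.373% over a median of 0.400% to 0.415% in “Mother” voles, a ratio of 1.55 between the means. The LG10 run had a ratio of 1.57, with 0.0151% to 0.0176% in “Father” and 0.0233% to 0.0289% in “Mother” voles. Virgin males lay between 0.24996% and 0.265% for the run on chromosome 10. Both ratios were above that of chromosome X, 1.36, and the groups did not overlap in any of the 3.

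The unplaced calls gathered on few scaffolds. The 41 windows higher in “Mother” lay on 18 of the 472 scaffolds with a tested window, which held 380 of the 14849 windows, and 8 of them lay on JH996447.1 and 4 on JH996472.1. Genes without a place in the table carry no scaffold name, so that no gene could be assigned to these windows. Among the other 454 scaffolds none had a window called higher in “Mother” voles, but some had the same pattern. Low windows averaged 2.69% in “Father” and 10.4% in “Mother” voles on JH996495.1, 2.21% and 14.7% on JH996464.1, and 1.45% and 9.54% on JH996607.1, with read ratios of 1.33, 1.40 and 1.86.

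The called window with the lowest p on an unplaced scaffold lay at 153000 to 153999 of JH996475.1 and held 16 cytosines. “Father” levels were 0.260% in Father 1 and 0% in the other 4, and “Mother” levels ran from 18.5% over a median of 29.8% to 48.9% (limma, adjusted p = 0.00780). At 459000 to 459999 of JH996561.1, the broadest called window with 120 cytosines, “Father” levels were 1.41%, 0%, 0.508%, 0% and 0.485%, and “Mother” levels ran from 11.7% over a median of 15.4% to 19.8% (limma, adjusted p = 0.00846). Both kept their call with each of the 11 animals left out.

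In the windows at 7073000 to 7073999 of JH996443.1 and at 71000 to 71999 of JH996599.1, each of 18 cytosines, “Mother” voles were 18.4 and 20.2 points higher (limma, adjusted p = 0.00780 for both). The former kept its call without each animal in turn, whereas the latter lost it without Father 1, 2, 3 or 4, with 11.6 points without Father 1, 2 or 4. At 701000 to 701999 of JH996487.1 the difference was 11.2 points (limma, adjusted p = 0.00846), and fell under 10 points without Mother 3 or Mother 6. “Father” means were at or under 0.352% in these 3 windows, and virgin males averaged at or under 1.01%.

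Low windows of all unplaced scaffolds averaged 1.13% to 1.36% in “Father” and 1.42% to 1.67% in “Mother” voles, over 6474 windows and with no overlap. The 18 scaffolds were chosen by their called windows, and their low windows include called ones. Of their 380 windows 196 had an unadjusted p under 0.05 (limma) and 42 were called, beside 690 and 2 of 14469 on the other scaffolds. A mean of the 18 scaffolds without their called windows was not taken. Over their 206 low windows “Father” voles averaged 1.49% ± 0.400 (SD, n = 5) and “Mother” voles 11.05% ± 0.888 (SD, n = 6), against 1.20% ± 0.0930 (SD, n = 5) and 1.25% ± 0.0676 (SD, n = 6) over 6268 low windows of the other scaffolds. Their calls amounted to 0.627% to 0.732% of placed calls in “Father” and 0.803% to 0.907% in “Mother” voles, a ratio of 1.30, whereas the other unplaced scaffolds had a ratio of 0.987 with overlapping groups. All 18 scaffolds had a read ratio over 1, from 1.01 to 1.56, compared with 177 of the other 454. Many of the 454 are small, and of the 121 among them with at least 10 windows 64 had a ratio over 1.

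A read ratio of 1.5 or more, taken as a mark of sequences with a double copy in females, was met by 17 scaffolds, 2 of them with called windows. The median ratio over windows of chromosome X itself was 1.23 and that of the chromosome 10 run 1.38, and 120 of 521 windows of chromosome X met that limit. Among the 472 scaffolds, 2 single-window ones had a ratio under 0.25, JH997689.1 with 0.155 and AHZW01184996.1 with 0.242.

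**Figure D4:**
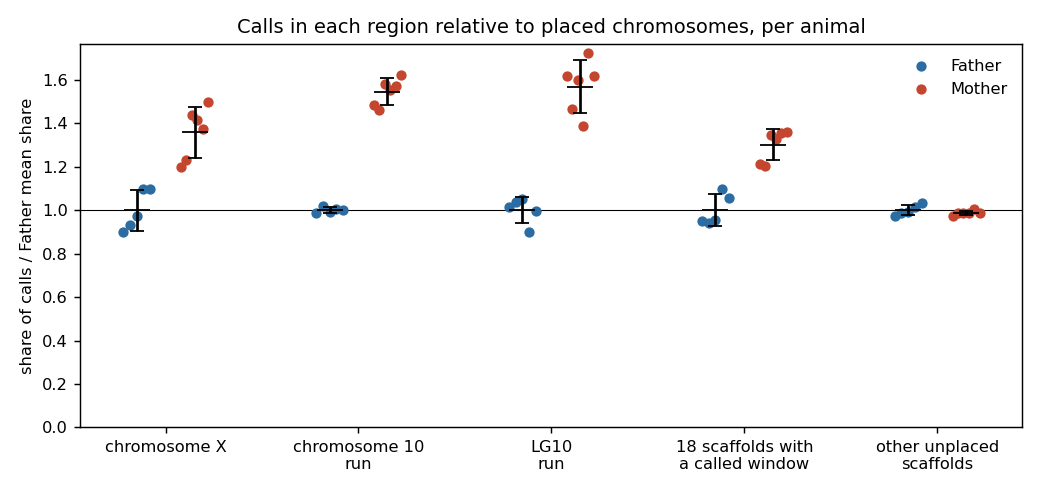
Share of calls in each region divided by the mean share in “Father” voles (y axis, no unit) for each “Father” and “Mother” animal, with mean and SD, where the share is relative to the calls on placed chromosomes. “Mother” animals average 1.36 on chromosome X, 1.55 and 1.57 in the runs and 1.30 on the 18 scaffolds, and 0.987 on the other scaffolds.

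Windows higher in “Father” voles were rare and mostly thin. On placed chromosomes all 3 rested on 3 or 4 cytosines, and none was called with p-values adjusted outside chromosome X. Without an animal they kept their call in 5 of 11, 3 of 7 and 2 of 3 fits, in the order given here. The one at 91804000 to 91804999 of chromosome 4, 109856 bp from Calcrl, a receptor gene for calcitonin gene-related peptide, had “Father” levels of 54.9%, 61.0%, 39.1%, 66.0% and 39.9%, and “Mother” levels of 1.97%, 17.98%, 8.85%, 0% and 5.06% in the 5 animals with a value (limma, adjusted p = 0.0280). Virgin males ran from 0% over a median of 4.86% to 52.2%, across both groups.

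At 4389000 to 4389999 of chromosome 17, inside Tnfrsf19, a tumor necrosis factor receptor family gene, “Father” voles averaged 35.4% ± 12.1 (SD, n = 4) and “Mother” voles 2.60% ± 4.04 (SD, n = 6) (limma, adjusted p = 0.0327). Virgin males ran there from 0% over a median of 14.9% to 50%, across both groups. At 39203000 to 39203999 of chromosome 5, 2950 bp from Il10ra, an interleukin receptor gene, “Father” levels were 66.7%, 15.6%, 66.7% and 60.0% in Father 2 to Father 5, and 4 “Mother” voles were at 0% (limma, adjusted p = 0.0411). Virgin males spanned 0% to 100% at the latter window, so that its level varied over the full range among males.

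The broadest difference in the direction of “Father” lay on the unplaced scaffold JH996454.1. A window of 95 cytosines at 5395000 to 5395999 had levels of 13.7%, 13.2%, 12.8%, 22.1% and 13.2% in “Father” voles, and of 0.946% over a median of 1.66% to 5.91% in “Mother” voles (limma, adjusted p = 0.0382). Virgin males ran from 11.4% to 20.2%, all above the highest mother. It rested on 9700 reads per “Father” and 4710 per “Mother” animal at the median. The call was lost in 10 of 11 fits that left out an animal, with differences of -13.4 to -10.9 points, “Mother” minus “Father”.

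The windows next to it had the same direction without being called. At 5393000 to 5393999, with 79 cytosines, means were 15.1% in “Father” and 3.66% in “Mother” voles, and at 5394000 to 5394999, with 80 cytosines, 11.02% and 1.14%, with no overlap in either. The latter had an adjusted p of 0.0411 (limma) but a difference of 9.88 points, lower in “Mother”, just under the 10 points a call needed. A second called window, at 5386000 to 5386999 with 5 cytosines, had 55.7%, 64.0%, 71.9%, 70.2% and 52.5% in “Father” voles and 17.4% over a median of 25.9% to 32.5% in “Mother” voles (limma, adjusted p = 0.0245). Between the called windows, the one at 5387000 had overlapping groups, as had the one at 5398000 beyond them. The window at 5392000, with 10 cytosines, also lay between them. Its means were 15.4% in “Father” and 2.99% in “Mother” voles (limma, adjusted p = 0.316), and the groups overlapped through Father 5 with 3.75%.

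Reads were fewer in mothers at these 2 called windows, with a “Mother” to “Father” ratio of 0.501 at the broad window and 0.262 at the narrow one, while the scaffold as a whole had 0.919. The part of read depth in these differences was not tested. The last window higher in “Father”, at 703000 to 703999 of JH996472.1, held 3 cytosines and had means of 97.2% ± 5.56 (SD, n = 4) and 43.2% ± 8.78 (SD, n = 4) (limma, adjusted p = 0.0245). Virgin males ran there from 33.3% over a median of 77.2% to 100%, across both groups.

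**Figure D5:**
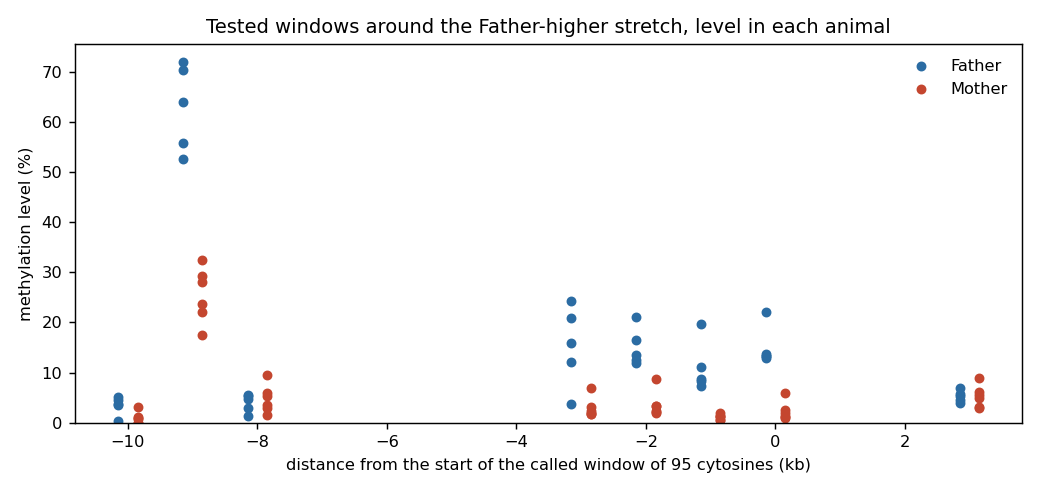
Methylation level in % (y axis) of the tested windows within 10 kb of the called window of 95 cytosines on JH996454.1, against the distance in kb from its start (x axis), with a point per animal. “Father” points lie above “Mother” points in the called windows at 0 and 9 kb before it and at the 2 windows just before it, and the groups overlap at both ends. In the window at 5392000 all “Father” points except that of Father 5 lie above the “Mother” points.

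Called cytosines lay at the same places and at many scattered ones. With the beta-binomial Wald test and a difference over 15 points, 391 placed cytosines were called, or 0.0456% of those tested, 196 higher in “Mother” and 195 in “Father”. On unplaced scaffolds 338 were called, or 0.107%, with 203 higher in “Mother” and the rest in “Father”. The groups did not overlap at 312 and 286 of the called cytosines, and 0.12% of all tested placed cytosines and 0.205% of unplaced ones were without overlap and over 15 points apart. In the chromosome 10 run 51 of 2659 tested cytosines were called, or 1.92%, 49 of them higher in “Mother”. The LG10 run had 5 of 223, or 2.24%, all higher in “Mother”. On the 18 scaffolds, chosen by their called windows, 151 of 5733 were called, or 2.63%, 19 of them higher in “Father”. Of the called cytosines of these 3 regions 25, 3 and 76 lay inside called windows and so drew on the same reads as those. The runs, too, were chosen with the window calls known. On the rest of the placed chromosomes 335 of 855121 were called, or 0.0392%, 142 higher in “Mother” and 193 in “Father”. Limma on the same levels called none on either class, with 11049 placed and 5221 unplaced cytosines at an unadjusted p under 0.05.

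The cytosine at the adjoining position, which reads the opposite strand of the same CpG, gave a second value for part of the calls. On the rest of the placed chromosomes, 54 called cytosines had a tested neighbor, none of these neighbors was called by the Wald test, 31 had the same sign, and their median difference was 9.53 points in size against 39.4 points for the called cytosine. In the chromosome 10 run 15 of 17 neighbors had the same sign, 6 were called, and the median was 21.1 against 29.3 points. The called cytosines were picked for their size, so that a smaller difference in the neighbor is a description and the contrast between regions was not tested.

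Among called cytosines outside called windows and without overlap of the groups, the 5 placed ones with the smallest p in each direction are given. In Crocc, a ciliary rootlet gene, position 43851876 of chromosome 10, beyond the run, had 100%, 80%, 100% and 100% in 4 “Father” voles and 0%, 12.5%, 17.4% and 6.67% in 4 “Mother” voles (Wald test, adjusted p = 5.94e-23). In Ntng2, which codes for the synaptic adhesion protein netrin-G2, position 47909140 of chromosome 4 had 62.7% in Father 3 and 100% in the other 4, and 0% in 4 “Mother” voles (Wald test, adjusted p = 1.1e-10). At position 51775546 of LG1, 13900 bp from Nkx6-1, a homeodomain transcription factor gene, “Father” voles averaged 97.9% and “Mother” voles 49.2% (Wald test, adjusted p = 6.69e-13). Virgin males spanned 0% to 100% at the cytosine in Ntng2 and 10% to 100% at that in Crocc.

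The other 2 higher in “Father” were position 101490376 of chromosome 1, 4718 bp from Setd7, a lysine methyltransferase gene, with 100% in all 5 “Father” voles and 29.4% ± 16.9 (SD, n = 5) in “Mother” voles, and position 29427044 of chromosome 15 in LOC101992308, with 53.5% ± 12.2 (SD, n = 4) against 0% in 4 “Mother” voles. Behind them stood 152 and 190 reads in all “Father” animals together.

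Of the 5 cytosines higher in “Mother”, 2 lay in the chromosome 10 run. Position 34847969, 441 bp from Tfe3, was at 0% in all 5 “Father” and all virgin males with enough reads and ran from 26.1% over a median of 44.8% to 62.8% in “Mother” voles (Wald test, adjusted p = 6.58e-10). Position 38492160, 24554 bp from Bcor, likewise had 0% in every male and 22.6% over a median of 31.2% to 37.0% in “Mother” voles (Wald test, adjusted p = 2.91e-10). None of the 265 and 478 “Father” reads at them was methylated.

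The other 3 were variable among males. In Nrxn2, the gene of a presynaptic adhesion receptor, position 41217270 of chromosome 8 had 37.2%, 12.9%, 25% and 6.52% in 4 “Father” voles and 64.3% over a median of 96.7% to 100% in “Mother” voles (Wald test, adjusted p = 1.94e-11), and virgin males ranged from 0% to 100%. A second called cytosine of Nrxn2, at 41270799, went the other way with 89.1% and 22.8%. At position 10422159 of LG8, 700 bp from Pard6b, a cell polarity gene, Father 3 had 61.5%, the other 4 had 0%, and 4 “Mother” voles had 100%. In Col13a1, a transmembrane collagen gene, position 34584111 of LG2 had means of 19.9% ± 23.1 (SD, n = 4) and 98.4% ± 3.23 (SD, n = 4).

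Gene groups tied to parental behavior, hormones or the synapse held no called window, and some called cytosines. Over the 11 lists, no window in a span or within 2 kb passed (limma, adjusted p). Of all placed windows 0.0384% did, a share so low that lists of this size can hold none. Of 16 windows at 8 of 18 listed oxytocin, vasopressin and prolactin system genes none had an unadjusted p under 0.05. Nor did any of 26 windows at 12 of 16 dopamine and opioid genes. Of 60 windows at 15 of 30 genes of steroid receptors and enzymes 2 did. The other genes of these lists had no tested window on placed chromosomes outside chromosome X and were not examined. The median differences of these lists were 0.0974, -0.00777 and -0.0579 points, “Mother” minus “Father”, beside -0.0147 points over all placed windows. Mean levels per animal ran from 3.62% to 5.69% in “Father” and 3.22% to 6.13% in “Mother” voles for the first list, and from 11.7% to 17.6% and 10.9% to 15.1% for the second. For steroid receptors and enzymes they ran from 11.8% to 13.9% and from 9.49% to 12.4%. There most “Mother” voles lay under the lowest “Father” vole, which was not tested.

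At Wnt signaling genes, a developmental pathway active in the DG, 12 of 242 windows, or 4.96%, had an unadjusted p under 0.05, 8 higher in “Mother” and 4 in “Father”, close to the 4.93% of all placed windows. The glutamate and GABA synapse list had 18 of 343, or 5.25%, with 9 in each direction, imprinted genes 5 of 108, or 4.63%, and genes of the methylation and chromatin machinery 8 of 109, or 7.34%. The lowest p of the Wnt list was at Prickle1, a planar polarity gene, in a window of 3 cytosines with 10.1% in “Father” and 54.7% in “Mother” voles (limma, adjusted p = 0.316).

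Within the spans of the listed genes 11 of 19269 cytosines were called by the Wald test, or 0.0571%, beside 0.0456% of all placed ones. Those higher in “Mother” lay in Nrxn2, Camk2a, a synaptic kinase gene, Prickle1 and, with 2, Pdzd2. Those higher in “Father” lay in Nrxn2, in Gad1, which makes GABA, in the glutamate receptor genes Grid1 and Grm4, and in the Wnt pathway genes Tcf7 and Wnt10a. The list of the glutamate and GABA synapse held 6 of 5167, or 0.116%, and that of granule neurons 3 of 1721, or 0.174%, with Camk2a on both. That of Wnt signaling held 3 of 4828, or 0.0621%, and no other list held one.

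Windows at markers of the cell types of the DG had similar levels in both groups. The list of granule neuron genes had 6 windows, or 4.88%, under an unadjusted p of 0.05, and its mean level ran from 12.7% to 18.5% in “Father” and from 13.7% to 20.3% in “Mother” voles. Astrocyte markers had 1 of 30 windows, with 6.69% to 10.01% and 6.17% to 10.1%, oligodendrocyte markers none of 47, with 10.8% to 13.1% and 10.97% to 14.7%, and microglia markers none of 9, with 16.1% to 19.8% and 6.995% to 21.6%. No window of these 4 lists was called by limma, and the shares of cell types were not measured.

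Against virgin males, no window of “Father” voles was called. “Parental” against “Father” and “Attacker” against “Father”, which share the “Father” animals with the comparison above, called 0 of 39984 and 0 of 39607 placed windows and 0 of 15186 and 0 of 14963 unplaced ones (limma), a share of 0%, with 1848, 1804, 652 and 646 at an unadjusted p under 0.05. In the chromosome 10 run the median difference, “Father” minus virgin males, was -0.184 points against “Parental” and 0.0364 points against “Attacker” voles, beside 5.63 points between “Mother” and “Father”. The mean of virgin males was nearer to that of “Father” voles in 52 of the 53 windows called higher in “Mother” and in 4 of the 6 called higher in “Father”, and in 48.8% of all tested windows outside chromosome X. The exception among the 53 was the window in Npas2, a circadian clock gene, with virgin males at 16.9%, “Father” voles at 1.00% and “Mother” voles at 24.3%.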

How the data were processed

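RRBS libraries of the DG were analysed for 5 “Father” and 6 “Mother” voles, with 12 virgin males for orientation. After trimming and alignment with Bismark against MicOch1.0, the authors deposited for each library and CpG cytosine the read count N and the methylated count X, neither of them normalized. Gene spans came from a RefSeq table of MicOch1.0 without strands or exons. The members and gene lists were chosen with earlier results of these data known, and the list of X-linked genes after the calls.

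A window level was the mean over its cytosines with at least 10 reads, and an animal needed 3 of them. Levels were arcsine square root transformed and fitted with limma 3.58.1 with trend and robust variance, leaving out animals without a value at that window. Cytosines were fitted with a re-implementation of the beta-binomial Wald test of DSS, which weights animals by reads and shrinks dispersions. P-values were adjusted by Benjamini-Hochberg over all 54478 windows or 1183084 cytosines, chromosome X included. Calls needed an adjusted p under 0.05 and at least 10 points for windows or over 15 points for cytosines. Both fits were run on simulated counts with the same fixed dispersion at every cytosine. It was not estimated from these data, so these runs do not give the error rate of the calls here. The 127 well-covered mitochondrial cytosines were left out. The read ratio divides the mean share of placed calls in “Mother” by that in “Father” voles.

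Named windows are the 10 placed and 5 unplaced called windows with the smallest p in each direction, and named cytosines the 5 placed ones per direction without overlap outside called windows. Genes that illustrate the runs of X-linked genes and the gene lists, the windows in Porcn and Npas2, and 3 scaffolds without a call, were chosen after their values were seen. The labels do not say that a replicate number marks a shared batch. Same-numbered animals did not deviate together in window levels, with correlations between -0.0271 and 0.0218. But number 1 had the lowest share of unplaced calls in each of the 4 groups, 39.1% to 39.8% of placed calls, and the lowest share of chromosome X calls. The share of unplaced calls rose with each number in “Father” (39.6% to 42.0%), “Attacker” and “Parental” voles. In “Mother” voles it rose up to Mother 5 (41.04%), with 40.4% in Mother 6. The share of chromosome X calls rose with each number in “Father” and “Attacker” voles, and not at every step in the other groups. Whether the numbers follow a batch was not tested. The block was kept as an alternative. Counting intervals are not given, because reads here carry no molecular identifiers. Genomic sequence was not used here. The software was R 4.3.3 and Python 3.11.15 with numba 0.67.0, scipy 1.17.1, pandas 2.3.3 and numpy 2.4.6.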

Additional observations from a re-analysis of the deposited data

Results flagged for a closer look

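Dixon's criterion was applied to 84 groups of 4 to 6 animals at the named windows and cytosines. In 16 groups a single animal stood apart from the rest. The criterion flags about 1 in 20 groups of normally distributed values, a rate that cannot serve as a chance level here. In several flagged groups all other animals were at 0% or fully methylated, where any single differing animal is flagged. The windows and cytosines had also been selected by their p-values. At 7 windows higher in “Mother”, the animal that stood apart was a “Father” animal slightly above the others. Father 1 had 0.260% on JH996475.1 at 153000, and Father 5 had 1.76% on JH996599.1 at 71000 and 0.395% on JH996487.1 at 701000, where the other “Father” voles were at 0%. In Dynlt3 Father 2 had 0.885% against 0.231% or less, and in Tfe3 Father 1 had 2.66% against 0.603% or less. Father 4 had 3.44% against 0.147% or less in the window at 40339000 in Cask. Father 2 had 1.52% in Negr1, with the others at 0%. All of these values lay under the lowest “Mother” value of their window.

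At windows higher in “Father”, Father 3 had 88.9% on JH996472.1 at 703000, with the others at 100%, and 15.6% near Il10ra, with the others from 60.0% to 66.7%. At the window of 95 cytosines on JH996454.1, Father 4 had 22.1% against 12.8% to 13.7% and Mother 5 had 5.91% against 0.946% to 2.62%. Among the cytosines, Father 2 had 80% in Crocc and 91.7% near Nkx6-1, and Father 3 had 62.7% in Ntng2, where the others were at 100%. Father 3 had 61.5% near Pard6b, with the others at 0%, and Mother 3 had 93.5% in Col13a1, with the others at 100%.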

How the results depend on the processing

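The count of 15 called placed windows became 8 with a minimum of 20 reads, 5 with coverage in every animal, 7 with adjustment outside chromosome X, where 0 were higher in “Father”, 5 without the runs of X-linked genes (added after seeing the data), and 0 with untransformed levels. Unplaced windows came to 0 with untransformed levels and to 2 without the 18 scaffolds (added after seeing the data), from 44. With the replicate number as a block, limma called 0 placed and 0 unplaced windows, with 2006 and 931 at an unadjusted p under 0.05. In window levels 1 of 5 “Father” voles correlated best with its own number, while the share of unplaced calls was lowest in number 1 of all 4 groups. Leaving out 1 animal gave 2 to 18 placed and 14 to 43 unplaced windows. Placed counts were 2, 3, 4, 4 and 7 without Father 1 to 5 and 8 without Mother 1, and unplaced counts 14, 18, 14, 27 and 27 without Father 1 to 5, when fewer windows were tested.

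Called placed cytosines numbered 655 with a minimum of 5 reads, 173 with 20, 125 with coverage in every animal and 611 with both strands of a CpG added up. Unplaced ones numbered 209 with 20 reads, 182 with coverage in every animal and 187 without the 18 scaffolds. Limma called 0 of either class, also with the replicate block, where 9104 and 4368 had an unadjusted p under 0.05. Without 1 animal the counts were 272 to 422 and 235 to 366. The mean difference ran from -0.141 to 0.0375 on placed chromosomes, positive without Father 5, and from -0.0345 to 0.145 on scaffolds, negative without Father 1, 2 or 3 (-0.0209, -0.0345 and -0.0231). On scaffolds it was -2.19 from pooled reads and -1.94 over all cytosines covered in an animal (exact permutation test, p = 0.312 and 0.303). The cause was not tested. Under the other alternatives these counts stayed within 1.5 times, and the means and the read share of chromosome X kept their direction and their side of the threshold. Among 204 values of named windows without 1 animal, 127 stayed called and 0 reversed. With a minimum of 20 reads, 14 of the 21 named windows could be fitted and 9 of these kept their call. With a minimum of 5 reads 16 of 21 kept it, and with the replicate block 0 of 21.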
